A study of Mus musculus with 2 samples.

Results

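CA3 pyramidal neurons were sought in single-nucleus RNA sequencing of the mouse hippocampus by a rule on marker genes. The rule took nuclei with at least 3000 unique molecular identifiers (UMIs), at most 5% mitochondrial UMIs and at least 3 UMIs summed over the excitatory genes *Slc17a7*, *Camk2a*, *Neurod2* and *Neurod6*. It further required at least 5 UMIs per 10000 of *Col11a1*, *Ccbe1*, *Cpne7*, *Iyd* and *Coch* together, more than of the CA1 genes *Fibcd1*, *Wfs1* and *Mpped1*. Nuclei with 8 or more UMIs per 10000 of the dentate genes *Prox1*, *Trpc6*, *Dsp* and *C1ql2*, 10 or more of *Foxp2* and *Tshz2*, or 3 or more of *Gad1* and *Gad2* were left out. The rule found 771 of 22389 nuclei, 384 in the PS19 library and 387 in the PZKO library, and fewer than 1 in 2 of them lay in the cluster of nuclei that carried CA3 markers outside the rule.

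PS19 mice carry a mutant human tau transgene under the mouse prion promoter, and PZKO mice are PS19 mice that lack *Zbp1* in all cells. *Zbp1* encodes a sensor of Z-form nucleic acids that can start necroptosis. Each library is labelled as pooled and stands for the hippocampi of 5 male mice, 9 months of age, which the protocol says were handled animal by animal, and the counts name no animal. Both genotypes carry the transgene, so there was no group without tau pathology, and with 1 library per genotype there was no replicate check and no test between genotypes.

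CA3 pyramidal neurons receive dentate granule cell input through the large mossy fibre terminals on their proximal dendrites, excite one another through recurrent collaterals, and project to CA1 through the Schaffer collaterals. Kainate receptors and the auxiliary subunit NETO1 shape the slow component of the mossy fibre response, and cell adhesion molecules such as nectin-3, cadherin-9 and KIRREL3 take part in building that synapse. The cells differ along the long axis of the hippocampus, with *Iyd* known from dorsal and *Coch* from ventral CA3.

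The PS19 library held 116488513 UMIs in 11469 nuclei and the PZKO library 171167884 UMIs in 10920 nuclei. Of these, 8164 and 8679 nuclei passed the limits on UMIs and mitochondrial UMIs, with medians of 9409.5 and 12622 UMIs. The nuclei of the rule made up 4.70% of the kept PS19 nuclei (95% exact binomial interval 4.25 to 5.19%) and 4.46% of the kept PZKO nuclei (4.03 to 4.91%). The intervals overlapped, so a difference in share was not detectable at this depth. Intervals here and below cover counting error only, not the spread between animals. Those of UMI ratios treat each UMI as independent, so they also leave out the spread between nuclei. The nuclei were among the deeper ones of both libraries, with medians of 29167 UMIs and 6026.5 genes in PS19 and 38299 UMIs and 6652 genes in PZKO. After each nucleus was thinned to 3000 UMIs, the median number of genes was 1519 in PS19 and 1532 in PZKO. The libraries shared 47 barcodes, 3 PS19 nuclei and 2 PZKO nuclei of the rule carried one of them, and no barcode stood for a rule nucleus in both libraries.

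The excitatory nuclei were clustered without the rule genes, and this clustering went against the label for the larger share of the nuclei. A cluster with CA3 markers, called CA3-like here, held 340 of the 771 nuclei. In PS19 they numbered 175 (45.6%, 40.5 to 50.7%), and in PZKO 165 (42.6%, 37.7 to 47.7%). A CA1-like cluster held 197 nuclei, 106 in PS19 and 91 in PZKO. A cluster led by *Dcn* and *Pde11a*, which was left unnamed, held 35 and 48 nuclei, and a CA2-like cluster held 26 and 17. The other 108 nuclei, 42 in PS19 and 66 in PZKO, were spread over 22 of 50 clusters, with at most 13 in any one. One of these clusters was led by the oligodendrocyte precursor genes *Pdgfra* and *Vcan* and held 12 of the nuclei. In what follows, "rule nuclei" stands for all 771 nuclei and "CA3-like nuclei" for the 340 of them in the CA3-like cluster.

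**Figure D1:**
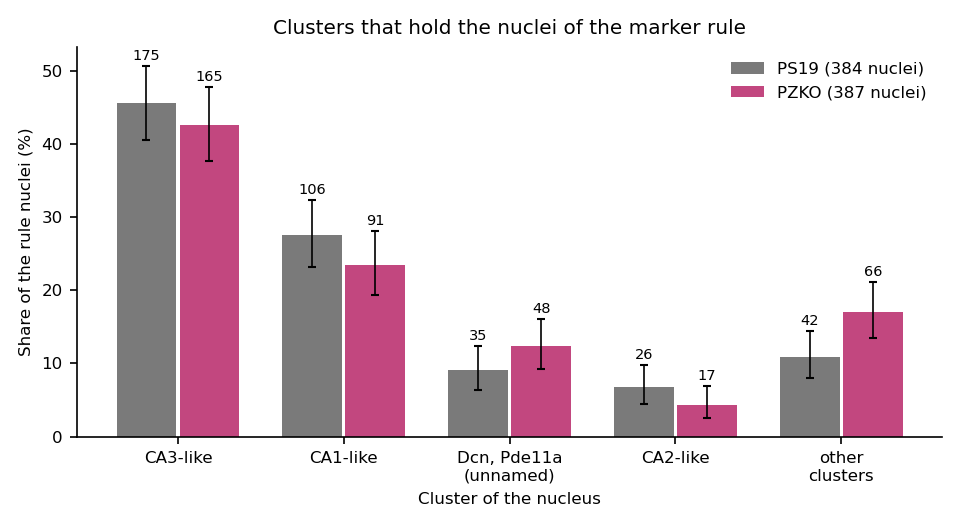
Share of the rule nuclei (vertical axis, percent of 384 PS19 or 387 PZKO nuclei) in each cluster of excitatory nuclei, with 95% exact binomial intervals as bars and the number of nuclei above them. The CA3-like cluster held 175 PS19 and 165 PZKO nuclei and the CA1-like cluster 106 and 91, and the intervals of the 2 libraries overlapped in every cluster shown.

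The rule genes themselves differed between these clusters, and each set of nuclei met the minimum through other genes. In the CA3-like nuclei all of *Col11a1* (a fibrillar collagen chain), *Ccbe1* (a secreted protein of lymphatic development) and *Cpne7* (a calcium-dependent phospholipid-binding copine) were present, at 466.9, 336.5 and 355.3 CPM (UMIs of the gene divided by all UMIs of the group of nuclei in that library and scaled to the same total) in PS19 and 250.9, 371.6 and 417.6 CPM in PZKO. In the CA1-like nuclei *Col11a1* stood at 652.4 and 581.6 CPM and *Cpne7* at 331.6 and 308.9 CPM, while *Ccbe1* reached 4.8 and 9.2 CPM. The *Dcn* and *Pde11a* nuclei met the rule almost wholly through *Cpne7*, at 733.7 and 693.5 CPM, with *Col11a1* at 0 and 3.0 CPM. A single rule gene carried 85 PS19 nuclei and 83 PZKO nuclei, that gene was *Cpne7* in 62 and 54 of them, and 3 and 2 of them were CA3-like. Of the nuclei with 3 or more rule genes, 146 of 180 in PS19 (81.1%) and 131 of 159 in PZKO (82.4%) were CA3-like.

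*Iyd*, an iodotyrosine deiodinase, was close to specific for the CA3-like cluster in these counts. It stood at 28.0 CPM in PS19 and 18.0 CPM in PZKO in the CA3-like nuclei, where 44.0% and 38.2% of nuclei held a UMI, and at 0 UMIs in the CA1-like and *Dcn* and *Pde11a* nuclei of both libraries. *Iyd* or *Coch* was seen in 88 PS19 nuclei, 83 of them CA3-like, and in 82 PZKO nuclei, 68 of them CA3-like. *Coch* was sparse in the CA3-like nuclei, at 1.4 and 2.4 CPM.

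Of 10 CA3 markers that the rule did not use, 9 were higher in the CA3-like than in the CA1-like rule nuclei in both libraries. The exception was *Dkk3*, a secreted protein of the Dickkopf family, at 124 and 113 CPM against 148 and 177 CPM. *Grik4*, the high-affinity kainate receptor subunit of CA3, stood at 935.5 CPM in PS19 and 965.4 CPM in PZKO in the CA3-like nuclei and at 92.3 and 78.8 CPM in the CA1-like nuclei. *Nectin3* stood at 333.8 and 301.2 CPM against 23.6 and 37.1 CPM. *Socs2*, a feedback inhibitor of cytokine signalling, stood at 149.1 and 126.7 CPM against 17.4 and 35.2 CPM. The proapoptotic BCL2 relative *Bok* was at 28.4 and 18.9 CPM against 6.3 and 3.7 CPM, and the CA1 gene *Man1a*, a Golgi mannosidase, ran the other way, at 102.5 and 91.8 CPM against 649.9 and 736.1 CPM. Over both libraries, *Grik4* had a UMI in 100% of the CA3-like nuclei and 50.8% of the CA1-like ones, *Ccbe1* in 97.4% and 9.1%, and *Bok* in 52.4% and 12.2%. The CA3-like nuclei were deeper, with medians of 35759 and 48949 UMIs against 24377.5 and 34261 in the CA1-like nuclei, so that the CPM and not the shares carry the comparison. These genes were among those clustered, and their levels are a description of the cluster with no test.

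**Figure D2:**
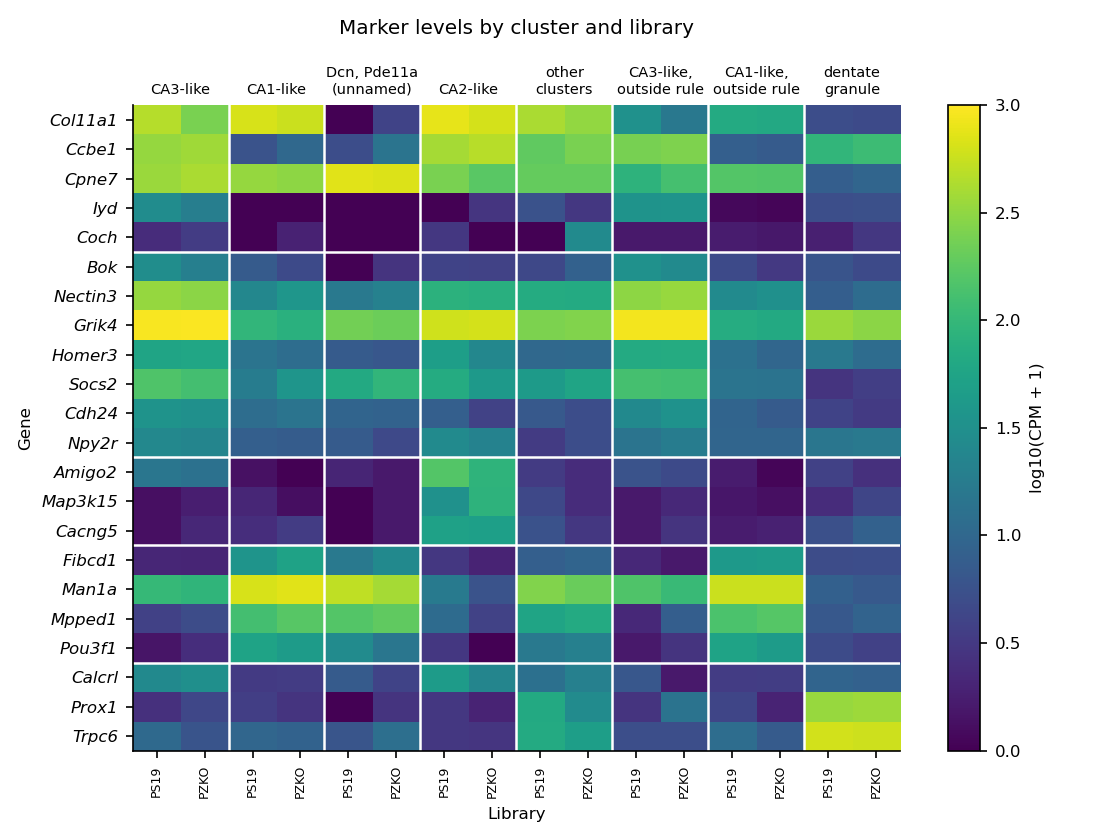
Levels of the rule genes (top block) and of CA3, CA2, CA1, mossy cell and dentate markers (vertical axis) in each cluster and library (horizontal axis), coloured by log10(CPM + 1). *Grik4* and *Nectin3* are high in the CA3-like nuclei inside and outside the rule, *Man1a* in the CA1-like ones, and *Amigo2* and *Map3k15* in the CA2-like ones.

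The CA2-like nuclei were set apart by *Amigo2* (a leucine-rich repeat adhesion molecule, 122 CPM over both libraries), *Map3k15* (a kinase, 59.1 CPM) and *Cacng5* (an auxiliary AMPA receptor subunit, 49.7 CPM). They shared *Grik4* with the CA3-like nuclei, at 610.9 CPM in PS19 and 636.1 CPM in PZKO, as well as *Ccbe1*, at 391.2 and 477.6 CPM. *Calcrl*, a calcitonin receptor-like receptor that marks mossy cells, was at 28.4 CPM over both libraries in the CA3-like nuclei.

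The rule sum had a median of 8.53 UMIs per 10000 in PS19 and 8.06 in PZKO, with the lowest nuclei at 5.003 and 5.004 and the highest at 56.1 and 38.2. Just under the minimum, at sums of 4 to 5, there were 113 PS19 and 105 PZKO nuclei, of which 23.01% and 15.2% were CA3-like. Just above it, at sums of 5 to 6, there were 77 and 75 nuclei, of which 29.9% and 22.7% were CA3-like. *Grik4* was at 421 and 350 CPM just under the minimum and at 462 and 400 CPM just above it. The share of CA3-like nuclei was 42.2% in both libraries at sums of 6 to 10 and 55.9% and 56.1% at sums of 10 to 20. At sums of 20 or more it was 64.3% of 28 PS19 nuclei and 50.0% of 20 PZKO nuclei. The CA3-like cluster as a whole had 419 nuclei, and the rule held 340 of them and missed 48 in PS19 and 31 in PZKO. The whole cluster was 2.73% of the kept PS19 nuclei (2.39 to 3.11%) and 2.26% of the kept PZKO nuclei (1.96 to 2.59%).

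Outside the rule genes, the 10 genes with the largest excess in the CA3-like nuclei over both CA1-like nuclei outside the rule (239 in PS19, 251 in PZKO) and dentate granule nuclei (472 and 245) were ranked in both libraries. From here on, CA1-like nuclei are these nuclei outside the rule unless those inside it are named. The first gene was *Gm32647*, a lincRNA gene at chr7:94042691-94709171 (mm10, plus strand), with 1103 CPM in PS19 and 1386 CPM in PZKO. It stood at 36.5 and 52.7 CPM in the CA1-like nuclei and at 7.05 and 10.6 CPM in the dentate nuclei, log2 ratios of 4.92 and 7.29 in PS19 and of 4.72 and 7.03 in PZKO. *Spock1*, a testican proteoglycan, was at 672 and 850 CPM against 15.7 and 27.9 CPM in the CA1-like nuclei. *Trps1*, a GATA-type zinc finger repressor, was at 1132 and 987 CPM against 55.1 and 68.4 CPM. *Hgf*, the ligand of the MET receptor, was at 42.0 and 33.4 CPM against 0.17 and 0.56 CPM, which rested on 1 and 5 UMIs in the CA1-like nuclei. The further genes were *Prss35*, *Col6a1*, *Ttn*, *Vgll3*, *Mndal* and *Ifi203*. The last pair are interferon-inducible paralogs of 1 gene family, between which reads may be split, and *Mndal* was at 93.7 and 102 CPM in the CA3-like nuclei. These ratios are a description, since the cluster was built on the same counts.

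Of the 7 kainate receptor genes, *Grik4* and *Neto1* were higher in the CA3-like than in both the CA1-like and the dentate nuclei by over 1 on the log2 scale in both libraries. *Neto1* was at 608 CPM in PS19 and 690 CPM in PZKO in the CA3-like nuclei, against 74.0 and 85.3 CPM in the CA1-like and 233 and 243 CPM in the dentate nuclei. *Grik4* was 3.73 and 3.89 on the log2 scale above the CA1-like nuclei and 1.43 and 1.69 above the dentate nuclei. *Grik2* was at 1442 and 1468 CPM, above the CA1-like nuclei (735 and 789 CPM) and below the dentate nuclei (1829 and 1977 CPM). *Grik1* and *Grik3* were also below the dentate nuclei, and *Grik5* was within 0.16 on the log2 scale of both groups. *Cdh9*, by which cadherin-9 joins mossy fibres to CA3, was at 469 and 424 CPM against 25.9 and 27.9 CPM in the CA1-like nuclei and 671 and 633 CPM in the dentate nuclei, its presynaptic partner cells. Several subunits were lower in the CA3-like than in the CA1-like nuclei. *Grin3a*, an NMDA receptor subunit, was at 6.32 and 6.92 CPM against 46.6 and 51.0 CPM, and *Cnih3*, an AMPA receptor auxiliary protein, at 8.06 and 12.6 CPM against 54.9 and 65.4 CPM.

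The comparison of PZKO with PS19 asks how the transcriptome of these neurons differs when *Zbp1* is lost in tauopathy. *Zbp1* had 1 UMI in the PS19 rule nuclei and 2 in the PZKO ones, and 0 UMIs in the CA3-like nuclei of either library, where 0 counts allow up to 3. The gene could therefore not check the genotype in these nuclei. In the kept nuclei below the excitatory minimum it had 65 UMIs in PS19 and 32 in PZKO, a log2 ratio of -1.29 (-1.95 to -0.66), and the sources used here do not say which exons were removed, so 3′ tags may lie outside them. Of the other necroptosis genes in the CA3-like nuclei, *Ripk3* had 0 UMIs in both libraries, *Mlkl* had 0 and 7 UMIs and *Ripk1* had 87 and 99 UMIs. Mouse *Mapt* had 2432 and 3493 UMIs in the CA3-like nuclei, a log2 ratio of 0.07 (-0.01 to 0.14). The labels name the mm10 build, and whether reads of the human transgene were counted as *Mapt* or *Prnp* was not tested. *Prnp*, whose promoter drives the tau transgene, had 1164 and 1140 UMIs, a log2 ratio of -0.48 (-0.60 to -0.37), and ratios of -0.35 in the CA1-like and -0.53 in the dentate nuclei.

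For each gene the log2 ratio of CPM, PZKO over PS19, was taken from summed UMIs, and a gene was past the fold at 0.5 or beyond in either direction. Among 9899 genes with at least 200 UMIs in the rule nuclei, 257 were past the fold higher in PZKO (2.6%) and 331 lower (3.34%). Among 7694 such genes in the CA3-like nuclei, 225 were higher (2.92%) and 271 lower (3.52%). In the CA1-like nuclei outside the rule 53 of 7595 genes were higher (0.698%) and 240 lower (3.16%), and in the dentate nuclei 89 of 7321 were higher (1.22%) and 341 lower (4.66%). The numbers of nuclei and UMIs differ between these groups, all of which come from the same 2 libraries, and the difference between them was not tested. The median log2 ratio over all tested genes was -0.02 in the rule nuclei and 0.00 in the CA3-like nuclei.

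Among the genes highest in PZKO, most were concentrated in a few nuclei. Of the 10 highest ratios in the CA3-like nuclei, 8 rested on genes for which 5 nuclei of each library held 50% or more of the UMIs. Part of these nuclei were shared between the 8 genes. At 5 UMIs per gene, 3 PS19 and 10 PZKO nuclei held 3 or more of them, with up to 3 and 6 genes in 1 nucleus. *Adarb2*, a catalytically inactive relative of the RNA-editing adenosine deaminases that is also an interneuron marker, had 39 UMIs in PS19 and 381 in PZKO, a log2 ratio of 2.83 (2.36 to 3.35). Its 5 highest nuclei held 74.4% and 67.2% of these UMIs. *Kcnmb2*, a subunit of calcium-activated potassium channels, had 64 and 364 UMIs (2.05, 1.67 to 2.46), of which 5 nuclei held 90.6% and 80.2%. *Cntn5*, an immunoglobulin adhesion molecule at chr9:9660891-10904775, had 233 and 785 UMIs (1.30, 1.08 to 1.51), and a single PZKO nucleus held 274 of them.

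The same held for the other genes of this kind. *AC150683.1* had 16 and 209 UMIs (3.25, 2.52 to 4.09), with all 16 PS19 UMIs in its 5 highest nuclei. *Pde11a*, a cyclic nucleotide phosphodiesterase, had 78 and 348 UMIs (1.70), *Brinp3* 47 and 223 (1.79), *Il1rapl2* 124 and 456 (1.42) and *Vgll3*, a cofactor of TEAD transcription factors, 45 and 195 (1.66). Over all rule nuclei *Adarb2* was at 1.14, *Brinp3* at 0.998 and *Il1rapl2* at 0.96, and over those with a marker sum of at least 10 they were at -2.47, -0.43 and -0.71. In the CA3-like nuclei all 6 interneuron markers were detected, summing to 23.1 CPM in PS19 and 58.9 CPM in PZKO. The most abundant in PZKO was *Adarb2*, and the other 5 summed to 16.9 and 15.0 CPM.

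**Figure D3:**
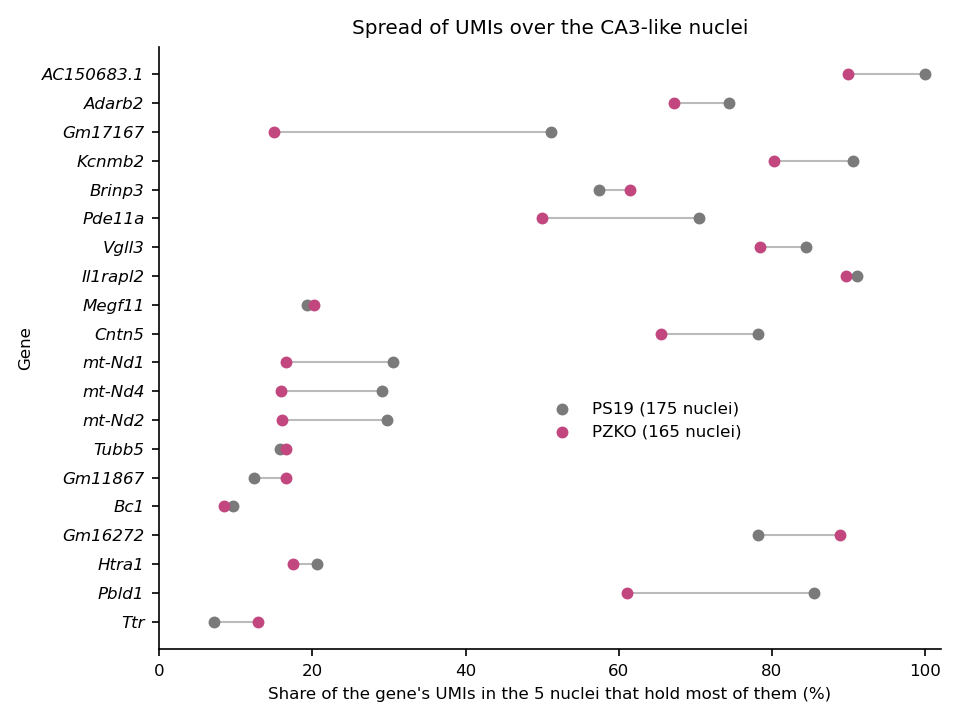
Share of a gene's UMIs held by the 5 CA3-like nuclei with most of them (horizontal axis, percent), in PS19 (175 nuclei) and PZKO (165 nuclei), for the 10 genes with the highest and the 10 with the lowest ratios. *AC150683.1*, *Il1rapl2* and *Kcnmb2* lie at 80.2% or above in both libraries, and *Bc1* and *Ttr* at 12.9% or below.

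*Gm17167* and *Megf11* were the highest genes whose PZKO UMIs were spread over many CA3-like nuclei. *Gm17167*, a processed transcript at chr4:42206998-42235313, had 45 UMIs in 18 PS19 nuclei and 361 UMIs in 121 PZKO nuclei, which is 10.3% and 73.3% of the nuclei. With every nucleus thinned to 9000 UMIs, 4.0% and 26.1% of the nuclei held a UMI. The log2 ratio was 2.55 (2.10 to 3.03), against 1.46 in the CA1-like nuclei, 1.47 in the dentate nuclei and 1.79 in the kept nuclei below the excitatory minimum, so that it was higher in PZKO in every group measured. *Megf11*, a receptor with EGF-like repeats at chr9:64385626-64709205, had 186 UMIs in 80 PS19 nuclei and 637 UMIs in 116 PZKO nuclei. Its log2 ratio was 1.32 (1.08 to 1.56), with 1.19 in the CA1-like nuclei, -0.15 in the dentate nuclei and 0.43 in the kept nuclei below the excitatory minimum.

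*Ttr*, which encodes transthyretin and is made in the brain mainly by the choroid plexus, had the lowest ratio. It had 680 UMIs in the 175 PS19 CA3-like nuclei and 101 UMIs in the 165 PZKO ones, a log2 ratio of -3.21 (-3.52 to -2.90). The ratio was -3.02 in the CA1-like nuclei, -3.05 in the dentate nuclei and -2.30 in the kept nuclei below the excitatory minimum. At 9000 UMIs per nucleus, 64.6% of the PS19 nuclei and 15.8% of the PZKO nuclei held a *Ttr* UMI. Choroid plexus markers summed to 117 CPM in PS19, with 4 of 5 detected and *Otx2* at 0, and to 22.6 CPM in PZKO, with 3 of 5 detected and *Folr1* and *Otx2* at 0, and *Ttr* was the most abundant of them. The other 4 summed to 9.32 CPM in PS19 and 10.95 CPM in PZKO, on 59 and 95 UMIs. Among the clustered nuclei, a cluster with the choroid plexus marker *Clic6* among its leading genes held 57 PS19 and 11 PZKO nuclei. Of these, 7 and 5 were rule nuclei, none of them CA3-like. The part of choroid plexus RNA in the *Ttr* ratio was not tested.

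*Htra1*, a secreted serine protease at chr7:130936111-130985660, was lower in PZKO in the CA3-like nuclei, and these held 78.7% of the rule nuclei's *Htra1* UMIs in PS19 and 73.9% in PZKO. Its UMIs numbered 755 in PS19 and 337 in PZKO, or 119 and 38.8 CPM, for a log2 ratio of -1.62 (-1.81 to -1.43). At 9000 UMIs per nucleus, 45.7% and 25.5% of the nuclei held a UMI. In the other rule nuclei the ratio was -1.55 in the CA1-like, -1.20 in the CA2-like and -0.97 in the *Dcn* and *Pde11a* nuclei. Outside the rule it was -0.67 in the CA1-like and -1.26 in the dentate nuclei, and it was 0.11 (0.05 to 0.18) in the kept nuclei below the excitatory minimum, where the gene was at 131 and 142 CPM.

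*Bc1*, a small brain cytoplasmic RNA found in dendrites, at chr7:144914470-144914637, was in every CA3-like nucleus. It had 6215 UMIs in PS19 and 3355 in PZKO, a log2 ratio of -1.34 (-1.41 to -1.28), against -1.45 in the CA1-like, -1.03 in the dentate and -0.82 in the kept nuclei below the excitatory minimum. *Gm11867* had 469 and 266 UMIs, with ratios of -1.27, -1.86, -1.75 and -1.45 in the same order. *Tubb5*, a beta-tubulin, had 184 and 109 UMIs (-1.21) and was also lower in the CA1-like (-0.71) and dentate nuclei (-0.93). *Pbld1* had 256 and 59 UMIs (-2.57), of which 5 nuclei held 85.5% in PS19 and 61.0% in PZKO. It was at -1.61 (-2.66 to -0.65) in the CA1-like nuclei inside the rule and at -0.42 in those outside it. *Gm16272* had 188 and 99 UMIs (-1.38), of which 5 nuclei held 78.2% and 88.9%.

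**Figure D4:**
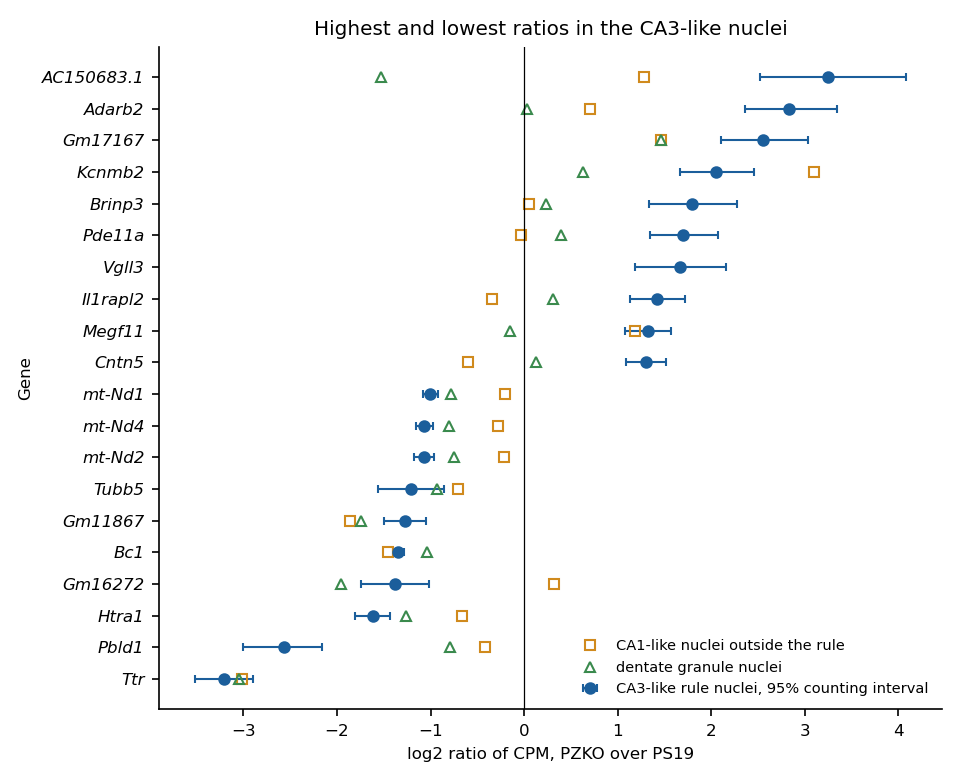
Log2 ratio of CPM, PZKO over PS19 (horizontal axis), for the 10 genes with the highest and the 10 with the lowest ratios in the CA3-like nuclei (filled circles, bars are 95% counting intervals), beside the CA1-like nuclei outside the rule (squares) and the dentate granule nuclei (triangles), where *Vgll3* had too few UMIs to be drawn. *Ttr*, *Bc1* and *Gm11867* are below -1 in all 3 groups, while *Cntn5* is at 1.30 in the CA3-like and -0.60 in the CA1-like nuclei.

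Over all 771 rule nuclei, part of the highest genes came from nuclei outside the CA3-like cluster. *Reln*, the secreted glycoprotein reelin, had 55 UMIs in PS19 and 586 in PZKO (2.97, 2.57 to 3.399). A single PZKO nucleus held 187 of them and 5 nuclei held 64.0%. Of the UMIs in each library, the CA3-like nuclei held 8 and 80, the *Dcn* and *Pde11a* nuclei 11 and 218, and the nuclei of the other clusters 30 and 281. *Erbb4*, a neuregulin receptor, had 286 and 1783 UMIs (2.20), 492 of the latter in 1 nucleus and 65.5% in 5 nuclei, and nuclei of the other clusters held 82.7% of those in PZKO. In the CA3-like nuclei its UMIs were 97 and 223 (0.75, 0.40 to 1.11). *Cux2*, a homeobox factor of upper cortical layers, had 66 and 279 UMIs (1.64), 89.96% of the latter in the other clusters. Over the rule nuclei with a marker sum of at least 10, *Erbb4* was at -0.048 and *Cux2* at -0.099. *Pdzrn3*, a ubiquitin ligase, had 120 and 510 UMIs (1.65), 79.8% of the latter in the other clusters. *Cped1* was at 71 and 304 UMIs (1.66) in the rule nuclei and at 34 and 44 UMIs (-0.08) in the CA3-like nuclei. The rule nuclei in the other clusters numbered 42 in PS19 and 66 in PZKO. At the low end the rule nuclei had *Ttr* (1608 and 346 UMIs, -2.66), *Pbld1*, *Rec114* (271 and 110, -1.74), *Htra1* (959 and 456, -1.51) and *Bc1* (14649 and 7845, -1.34).

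Ionotropic glutamate receptors and their partners stood at similar levels in both libraries in the CA3-like nuclei, with a few exceptions. None of the 5 tested kainate receptor genes was past the fold, with a median log2 ratio of 0.05 against 0.00 for all genes. *Grik4* had 5921 and 8375 UMIs (0.05, 0.00 to 0.09), *Neto1* 3846 and 5988 (0.18) and *Neto2* 691 and 786 (-0.27). *Grik1* and *Grik3*, kainate receptor subunits that are sparse in CA3, were past the fold in all rule nuclei (1.08 and 0.71) and at -0.04 and -0.02 in the CA3-like nuclei, on 42 and 56 and on 34 and 46 UMIs. Over the rule nuclei with a marker sum of at least 10, *Grik3* was at -0.81. Of 9 AMPA receptor genes, *Shisa9*, an auxiliary subunit also named CKAMP44, was past the fold higher with 181 and 588 UMIs (1.24, 1.002 to 1.49). In the CA3-like nuclei 5 nuclei held 33.7% and 36.1% of the *Shisa9* UMIs. *Shisa9* was also higher in the CA1-like (0.58) and dentate nuclei (0.36). *Cnih2*, the cornichon that aids AMPA receptor export, was past the fold lower with 284 and 226 UMIs (-0.78, -1.04 to -0.53). It was also past the fold lower in the CA1-like (-0.57) and dentate nuclei (-0.70). Of all tested genes, 2.92% were past the fold higher and 3.52% lower. *Gria1* (0.21), *Gria2* (0.09) and *Gria4* (0.33) were above 0.

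None of the 3 tested NMDA receptor genes was past the fold, with *Grin1* at -0.11, *Grin2a* at 0.13 and *Grin2b* at -0.01. None of the 10 tested GABA-A receptor genes was past it either, with a median of 0.03. Of the 5 tested metabotropic receptors, *Grm8*, a presynaptic group III receptor, was past the fold higher with 191 UMIs in 24 PS19 nuclei and 620 UMIs in 46 PZKO nuclei (1.24, 1.01 to 1.49), and 5 nuclei held 68.1% and 52.1% of them. Of all tested genes 2.92% were past the fold higher. *Grm8* was also past it in the CA1-like nuclei (0.78) and stood at 0.08 in the dentate nuclei. None of the 14 postsynaptic scaffold genes was past the fold. All 14 had ratios above 0, as did 3875 of all 7694 tested genes. Of the 13 tested in the CA1-like and in the dentate nuclei, 10 and 9 had ratios above 0. Of all genes tested there, 3003 of 7595 and 3039 of 7321 did. Among the scaffold genes in the CA3-like nuclei, *Dlgap3*, a binding partner of PSD-95 and SHANK proteins, was the highest at 315 and 588 UMIs (0.45, 0.25 to 0.65).

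Of the 10 tested mossy fibre synapse organizers, *Kirrel3* was past the fold higher, beside 2.92% of all tested genes, and the others were not past it. It had 1026 UMIs in 75 of 175 PS19 nuclei and 2866 in 101 of 165 PZKO nuclei, or 162 and 330 CPM, for a log2 ratio of 1.03 (0.92 to 1.13). Its ratio was 0.28 in the CA1-like nuclei and 0.10 in the dentate nuclei, where its level was 1768 and 1896 CPM. *Nectin3* had 2113 and 2613 UMIs (-0.15) and *Cdh9* 2966 and 3677 UMIs (-0.14), and *Nrxn3*, a presynaptic neurexin, was at 0.05. Dentate markers, of which *Maml2* was the most abundant, summed to 150 CPM in the PS19 and 219 CPM in the PZKO CA3-like nuclei, with all 8 detected. Without *Maml2*, which had a UMI in 85.6% of the CA3-like nuclei, the other 7 summed to 19.1 and 13.1 CPM. In the CA3-like nuclei 5 nuclei held 32.4% and 30.3% of the *Kirrel3* UMIs. *Kirrel3* was also lower in rule nuclei with *Iyd* and no *Coch* UMI than in the reverse, at log2 ratios of -2.64 in PS19 and -3.57 in PZKO. *Shisa9* was so too, at -3.15 and -4.22. The parts of dentate RNA and of position along the long axis in the *Kirrel3* ratio were not tested, nor was that of position in the *Shisa9* ratio.

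Of 27 axon guidance genes tested, 1 was past the fold higher and 1 lower, near the 2.92% and 3.52% of all tested genes. *Efna5*, the ligand ephrin-A5, had 250 UMIs in PS19 and 743 in PZKO (1.12, 0.91 to 1.33), against 0.13 in the CA1-like and 0.22 in the dentate nuclei. These UMIs sat in 37 and 57 nuclei, 5 of which held 50.0% and 31.6%. *Epha5*, a receptor for ephrin-A ligands, had 8722 and 8285 UMIs, or 1378 and 955 CPM, for a log2 ratio of -0.53 (-0.57 to -0.49), against -0.03 in the CA1-like and 0.09 in the dentate nuclei. Its relative *Epha6* had 22486 and 25747 UMIs (-0.26), against 0.00 and 0.03.

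Potassium and HCN channels had 4 of 26 tested genes past the fold higher, beside 2.92% of all genes tested in these nuclei, and 0 lower, with a median of 0.15. *Kcnd3*, a pore subunit of A-type channels, had 1420 and 2956 UMIs (0.60, 0.51 to 0.70), and *Kcnip3*, a calcium-binding partner of these channels, had 349 and 682 (0.51, 0.32 to 0.70). *Kcnh7*, an ERG-type channel, had 186 and 494 UMIs (0.95) and *Kcnn3*, a small-conductance calcium-activated channel, 79 and 216 (0.996). In the CA1-like nuclei *Kcnd3* was at 0.38, *Kcnip3* at 0.04, *Kcnh7* at 0.09 and *Kcnn3* at 0.12. None of the 17 tested calcium and sodium channel genes was past the fold.

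Some genes of peptide release and of activity-dependent transcription were lower in PZKO in the CA3-like nuclei. *Chgb*, a granin of dense-core vesicles, had 2559 and 2255 UMIs, 404 and 260 CPM (-0.64, -0.72 to -0.56), and *Cck*, the peptide cholecystokinin, had 223 and 152 UMIs (-1.01, -1.31 to -0.70). They were the 2 of 5 tested genes of this list past the fold, beside 3.52% of all tested genes lower. *Chgb* was at -0.27 in the CA1-like and -0.17 in the dentate nuclei, and *Cck* at -0.51 and -0.49. Of 7 tested activity-regulated genes, 4 were past the fold lower, beside 3.52% of all tested genes, and 0 higher, with a median of -0.51 against -0.80 in the dentate nuclei (5 genes) and 0.07 in the CA1-like nuclei (9 genes). In the latter 3 of the 9 were past the fold lower and 0 higher, beside 3.16% and 0.698% of all genes tested there. The lowest of the 9 was *Arc*, which encodes a synaptic capsid-like protein, at -0.88. *Bdnf*, the neurotrophin of mossy fibre and CA3 synapses, had 395 and 380 UMIs (-0.51, -0.72 to -0.30), against 0.22 (-0.03 to 0.46) in the CA1-like nuclei. The AP-1 subunit *Jund* was at -0.71 and the orphan nuclear receptors *Nr4a1* and *Nr4a2* at -0.51 and -0.62, while the scaffold gene *Homer1* was at 0.15. *Fos* and *Arc* had 25 and 15 and 109 and 89 UMIs, under the minimum of 200. Their ratios were -1.19 (-2.22 to -0.21) and -0.75 (-1.17 to -0.33), while the study names both as higher in PZKO over all excitatory neurons. Of the 10 genes so named that reached the minimum in the CA3-like nuclei, 8 were above 0 and 2 below. *Vamp2*, the vesicle SNARE synaptobrevin-2, was the 1 of 19 tested synaptic vesicle genes past the fold, at 334 and 299 UMIs (-0.61).

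Genes of protein folding and energy metabolism had median ratios below that of all genes. Of 15 tested chaperones in the CA3-like nuclei, 7 were past the fold lower, beside 3.52% of all tested genes, and 0 higher, with a median of -0.42. *Hspa5*, the chaperone BiP of the endoplasmic reticulum, had 292 and 232 UMIs (-0.79), *Hsp90ab1* 929 and 819 (-0.64) and *Hspa8* 336 and 301 (-0.61). The median was -0.34 in the CA1-like, -0.35 in the dentate and -0.51 in the kept nuclei below the excitatory minimum. Ribosomal protein genes had 5 of 70 past the fold lower and 1 higher, with a median of -0.23. Nuclear-encoded oxidative phosphorylation genes had 5 of 52 lower and 0 higher, with a median of -0.24. Of all tested genes, 3.52% were past the fold lower and 2.92% higher. The medians of both lists were -0.31 or lower in the other 3 groups. All 12 tested mitochondrially encoded genes were past the fold lower, with a median of -0.88, against -0.22 in the CA1-like and -0.72 in the dentate nuclei. In the kept nuclei below the excitatory minimum all 13 were, with a median of -0.76, beside 1064 of all 14053 genes tested there. *mt-Nd1* had 3105 and 2126 UMIs, of which 5 nuclei held 30.6% in PS19 and 16.6% in PZKO. Over all rule nuclei the median of the list was -0.68, and it was -0.22 when nuclei with more than 1% mitochondrial UMIs were left out. The CA3-like nuclei held a median of 0.205% mitochondrial UMIs in PS19 and 0.148% in PZKO. *Malat1*, a nuclear long noncoding RNA, had 941205 UMIs in PS19, 148703 CPM, and 991424 in PZKO, 114278 CPM (-0.38). It was at -0.15 in the CA1-like nuclei, and the part of these in the other ratios was not tested.

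**Figure D5:**
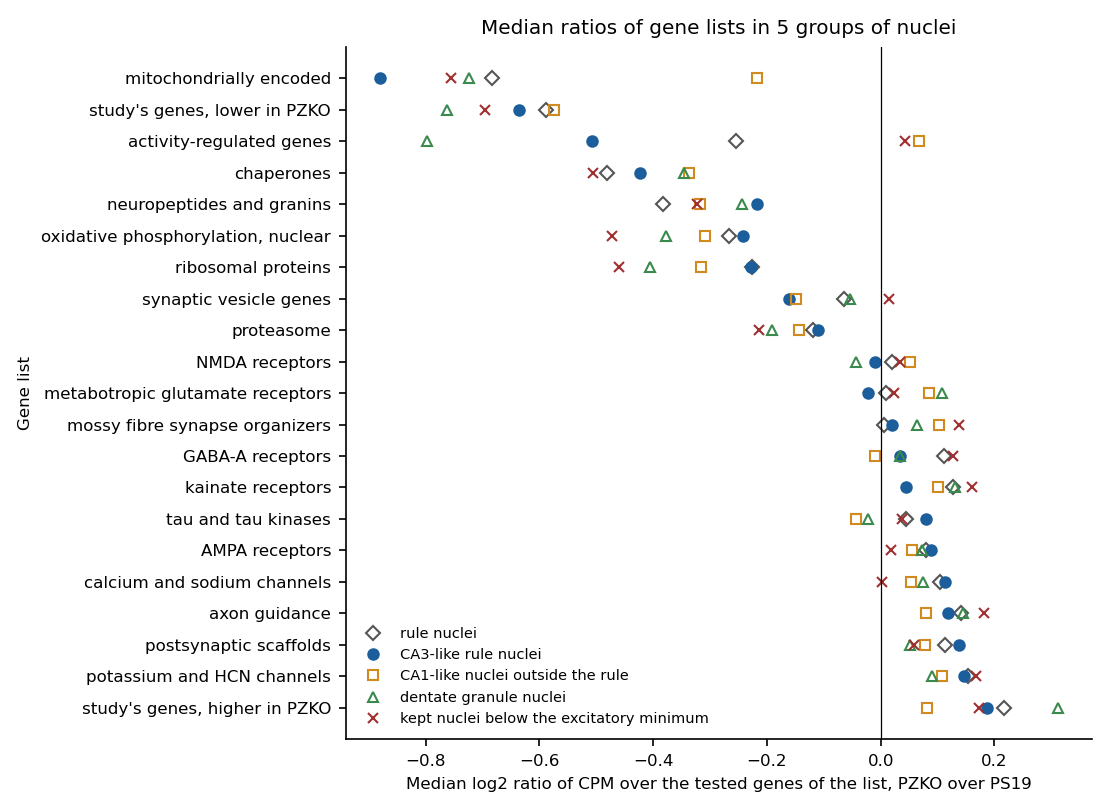
Median log2 ratio of CPM, PZKO over PS19 (horizontal axis), over the tested genes of a list (vertical axis) in 5 groups of nuclei. Among the lists drawn, which leave out the interferon-stimulated, necroptosis, DNA damage, clock and nuclear long noncoding RNA genes, the medians of the CA3-like nuclei run from -0.88 for mitochondrially encoded genes to 0.19 for genes named by the study as higher, and activity-regulated genes are at -0.51 there and at 0.07 in the CA1-like nuclei.

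The study names genes for all excitatory neurons, chosen on these same libraries, so that their direction here is not independent evidence. Of the 14 named as lower, 10 were past the fold lower in the CA3-like nuclei, beside 3.52% of all tested genes, and 0 higher, with a median of -0.64, against -0.57 in the CA1-like, -0.76 in the dentate and -0.70 in the kept nuclei below the excitatory minimum. They include the glial transcripts *Apoe* (603 and 536 UMIs, -0.62), *Clu* (481 and 362, -0.86), *Cst3* (725 and 541, -0.88) and *Apod* (156 and 103, -1.05), which encode 2 apolipoproteins, clusterin and a protease inhibitor. The exception in sign was *Ifi27*, an interferon-inducible gene, with 76 and 144 UMIs (0.47, 0.06 to 0.89). Of the 20 named as higher, 10 could be tested, with a median of 0.19, 0 past the fold higher and *Nr4a1* past it lower.

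Astrocyte markers summed to 59.2 CPM in PS19 and 55.4 CPM in PZKO in the CA3-like nuclei, with 6 of 6 detected and *Slc1a3* the most abundant. Without it the other 5 summed to 41.1 and 32.0 CPM. Microglia markers summed to 57.8 and 32.4 CPM, with 6 of 6 detected. Oligodendrocyte markers summed to 158 and 157 CPM, with 6 of 6 detected and *Mbp* the most abundant, at 429 and 755 UMIs, and without it the other 5 summed to 90.5 and 70.3 CPM. Endothelial markers summed to 3.95 and 2.77 CPM. Oligodendrocyte precursor markers summed to 15.2 and 20.1 CPM, and without *Vcan*, the most abundant, the other 2 summed to 0.95 and 4.26 CPM. Thus the microglia sum, and the astrocyte and oligodendrocyte sums without *Slc1a3* and *Mbp*, were lower in PZKO, and the precursor sums were higher. Of the 3 oligodendrocyte genes tested, 2 had ratios above 0. The genes of the study's list other than *Ifi27* were lower in PZKO, and the part of glial RNA in them was not tested.

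Interferon-stimulated genes were sparse, with 3 of 20 reaching 200 UMIs in the CA3-like nuclei. *Stat2*, a transcription factor of interferon signalling, had 188 UMIs in PS19 and 320 in PZKO (0.31, 0.05 to 0.58), against 0.13 in the CA1-like and 0.70 in the dentate nuclei. None of the 10 tested DNA damage response genes was past the fold, with *Atm* at 0.10, nor was any of the 15 tested tau and tau kinase genes, with *Gsk3b* at 0.03 and the CDK5 activator *Cdk5r1* lowest at -0.46 (194 and 193 UMIs). *Trp53* had 124 and 185 UMIs (0.12). Of the necroptosis genes only *Irf3*, a transcription factor of innate immunity, reached the minimum, with 139 and 142 UMIs (-0.42). Of 10 tested clock genes, *Npas2* (187 and 446 UMIs, 0.80) and *Arntl* (283 and 563, 0.54), partners of CLOCK, were past the fold higher and *Per3* (232 and 214, -0.57), a repressor of them, lower, beside 2.92% of all tested genes higher and 3.52% lower.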

How the data were processed

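The authors deposited, for 1 PS19 and 1 PZKO library of pooled hippocampi, raw UMI counts per gene and nucleus from 10x 3′ chemistry, without normalization. The deposited barcodes carry no label for the animal. The authors counted reads with Cell Ranger on mm10. The submitters' notes name version 7.0.1, while the matrix headers name 8.0.1. Neither the ambient correction nor the doublet removal of the study's methods had been applied to the deposited counts. Positions of 32158 of 32285 genes were taken from GENCODE M21.

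The 8549 kept excitatory nuclei of both libraries were clustered with leidenalg 0.10.2 at resolution 1 (2000 variable genes, 30 principal components, 20 neighbours). Rule genes, sex-linked and mitochondrial genes and genes the study names were left out, and clusters were named from marker lists. UMIs of a gene were summed per group and library and divided by the group's total (CPM). Log2 ratios carry exact conditional binomial (Clopper-Pearson) 95% intervals, and a count of 0 allows up to 3. Genes named are the 10 highest and 10 lowest ratios by whichever interval end was closer to 0 among genes with at least 200 UMIs, in the rule nuclei and again in the CA3-like nuclei, the markers, the study's genes and members of the lists, for CA3-like levels the 10 with the largest excess, and for *Iyd*-only against *Coch*-only nuclei the 8 largest in PS19 in each direction.

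CA1 nuclei by a marker rule of the same kind numbered 14 and 13, too few to use, so the CA1-like cluster outside the rule took their place, a choice made after seeing the data. Dentate granule nuclei were those with at least 8 UMIs per 10000 of the dentate genes and under 5 of the CA3 and CA1 genes. The values of some single genes are not reported here, while counts and medians of lists include them. Members and lists were chosen with earlier results of these data known. Scrublet scores (scanpy 1.11.5) marked 45 PS19 and 36 PZKO rule nuclei as likely doublets, and these were kept, as in the rule. Ambient RNA was estimated from oligodendrocyte markers at 12.3% and 13.0%. The interval was tested on simulated counts of the rule nuclei. Alternatives were scaling by TMM (edgeR 4.0.16) or by size factors (DESeq2 1.42.0), a mean over nuclei, ambient subtraction, thinning to 3000 UMIs, other minima of UMIs, mitochondrial UMIs, marker sum and gene counts, removal of doublets and of nuclei with CA2 or mossy cell markers, equal weight of *Iyd*-only and *Coch*-only nuclei and, added after seeing the data, the CA3-like nuclei alone, all rule nuclei but those of the other clusters, and equal weight of the 4 clusters that held most rule nuclei.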

Additional observations from a re-analysis of the deposited data

Results flagged for a closer look

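*Cntn5* went in opposite directions in 2 groups of nuclei. It had a log2 ratio of 1.30 (1.08 to 1.51) in the CA3-like nuclei, with 233 UMIs in PS19 and 785 in PZKO, and of -0.60 (-0.76 to -0.44) in the CA1-like nuclei outside the rule, with 655 and 653 UMIs. The difference was not tested, since each library is a single sample. Inside the rule it was higher in PZKO in the CA1-like nuclei (90 and 304 UMIs, 1.49) and in the *Dcn* and *Pde11a* nuclei (161 and 1217 UMIs, 2.15) as well.

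Barcodes with fewer than 3000 UMIs were left out by the rule. Of these, 2460 PS19 barcodes and 1551 PZKO barcodes had at most 5% mitochondrial UMIs, and 2 of the former and 2 of the latter met its other conditions, with 2969 and 3115 UMIs in all. They held 0 and 1 *Grik4* UMIs, too few to tell what they are.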

How the results depend on the processing

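No paired analysis was possible because each genotype had 1 library. The share of rule nuclei, 4.70% in PS19 and 4.46% in PZKO, was 3.80% and 3.92% with a minimum of 1000 UMIs, 7.11% and 5.86% with 6000 UMIs, 1.79% and 1.46% with a marker sum of at least 10, 4.14% and 3.53% after thinning to 3000 UMIs, 2.14% and 1.90% for the CA3-like nuclei alone and 4.19% and 3.70% without the nuclei of the other clusters. It was 5.46% in PS19 with at most 1% mitochondrial UMIs. The genes past the fold in the rule nuclei, 257 higher and 331 lower, numbered 120 and 183 (of 6337 genes) with a marker sum of at least 10, 44 and 31 (of 1626) after thinning, 1178 and 1518 (of 15875) with a minimum of 20 UMIs per gene, 3524 and 4403 (of 23549) with 1 UMI, and 1690 and 1430 with equal weight of *Iyd*-only and *Coch*-only nuclei, where the 8 and 16 *Coch*-only nuclei take a large weight. Higher genes numbered 396 after ambient subtraction, and lower genes 608 with equal weight of the 4 main clusters.

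The median of the study's higher genes in the rule nuclei was 0.22, and 0.70 with equal weight of *Iyd*-only and *Coch*-only nuclei and 0.46 after thinning. That of its lower genes was -0.59, and -0.42 as a mean over nuclei. That of mitochondrially encoded genes was -0.68, and -0.22 with at most 1% mitochondrial UMIs. Of the lists described as lower, medians crossed 0 for activity-regulated genes (-0.25, and 0.08 with equal weight of *Iyd*-only and *Coch*-only nuclei) and for neuropeptides and granins (-0.38, and 0.037 after thinning). With a marker sum of at least 10, *Erbb4* was at -0.048, *Cux2* at -0.099, *Adarb2* at -2.47, *Brinp3* at -0.43, *Il1rapl2* at -0.71 and *Grik3* at -0.81, all of them above 0 in the rule nuclei. *Adarb2* was at -0.039 after thinning and *Brinp3* at -0.098 with equal weight of the 4 clusters. In the CA3-like nuclei alone *Cped1* was at -0.083, *Grik1* at -0.040 and *Grik3* at -0.019. *Jun* was at 0.017 with equal weight of *Iyd*-only and *Coch*-only nuclei. Where the number of nuclei or genes did not set it, the cause was not tested. Depth limits sparse genes: *Zbp1*, *Ripk3* and *Mlkl* had at most 7 UMIs in the CA3-like nuclei of either library.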

Other observations

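*Iyd*-only nuclei, with at least 1 *Iyd* UMI and no *Coch* UMI, numbered 79 in PS19 and 63 in PZKO among the rule nuclei, and 76 and 60 of them were CA3-like. *Coch*-only nuclei numbered 8 and 16, of which 6 and 5 were CA3-like. Of the 16 genes with the largest ratios between these nuclei in PS19, 8 had the same sign in PZKO and 8 the other. *Egfem1* was lower in *Iyd*-only nuclei in both libraries, with a log2 ratio of -3.81 in PS19 and -3.47 in PZKO. So were *Tenm1*, a teneurin adhesion molecule (-3.08 and -4.53), *Shisa9* (-3.15 and -4.22), *Kirrel3* (-2.64 and -3.57), *Cpne8* (-2.58 and -2.19) and *Dock10* (-2.49 and -1.08). *Cpne9* (4.07 and 0.80) and *Ttn* were higher in *Iyd*-only nuclei in both. The genes that differed in sign were *Sgcz*, a sarcoglycan (4.10 in PS19 and -5.45 in PZKO), *Cntn5* (3.26 and -6.16), *Cacng3* (3.90 and -1.64), *Sorcs3* (2.85 and -1.81), *Pparg* (3.62 and -0.15), *Cdyl2* (3.61 and -0.54), *Gm16272* (-3.24 and 3.87) and *Fam169a* (-2.70 and 1.25). With 8 and 16 *Coch*-only nuclei, 1 nucleus can set a value, and no test was made.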
